A study of Mus musculus with 16 samples.

Results

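CC chemokines are small secreted proteins with adjacent cysteines near the amino terminus. They were followed here at the RNA level in bone marrow-derived macrophages, which are grown from mouse marrow with macrophage colony-stimulating factor. The 10 genes Ccl2, Ccl3, Ccl4, Ccl5, Ccl6, Ccl7, Ccl9, Ccl12, Ccl17 and Ccl22 were taken from a count table of 43430 genes by their Ensembl identifiers, and each matched 1 row. The 16 libraries were from C57BL/6J mice and formed 4 groups of 4: MEM with serine and untreated, MEM without serine and untreated, MEM with serine plus LPS, and MEM without serine plus LPS. LPS (lipopolysaccharide, a bacterial cell wall component sensed by Toll-like receptor 4) was given at 100 ng/mL for 4 h before RNA was taken. All groups came from cells grown with 20 ng/mL of the colony-stimulating factor and harvested on day 6, and the time without serine is not given in the sources used here. The labels number the replicates from 1 to 4 without saying whether these are animals or cultures, so each p-value measures only the spread among such libraries. Replicate 1 differed in sex from the others (below), and the spread among replicates 2 to 4 may be technical.

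CC chemokines bind G protein-coupled receptors on leukocytes and direct their migration along concentration gradients. Ccl3 and Ccl5 act through Ccr1, among other receptors, and Ccl4 attracts monocytes and T cells. Ccl2, Ccl7 and Ccl12 attract monocytes through Ccr2, Ccl6 and Ccl9 are rodent ligands of Ccr1, and Ccl17 and Ccl22 attract T cells through Ccr4. In macrophages, Toll-like receptor signalling turns on many of these genes through NF-kB and interferon regulatory factors.

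In mm10 coordinates, 8 of the 10 genes lie on chromosome 11 and 2 on chromosome 8. Ccl2 (82035571 to 82037453), Ccl7 (82045712 to 82047525) and Ccl12 (82101845 to 82103400) lie on the plus strand, with Ccl11 (0 counts in the 16 libraries) between Ccl7 and Ccl12. A second stretch begins 1422378 bases further on with Ccl5 (83525778 to 83530518), Ccl9 (83572919 to 83578636), Ccl6 (83587882 to 83593087) and Ccl3 (83647844 to 83649355), which lie on the minus strand. Ccl4 (83662584 to 83664683) lies on the plus strand, 13229 bases past Ccl3. On chromosome 8, Ccl22 (94745590 to 94751699) and Ccl17 (94810453 to 94812035) lie 58754 bases apart on the plus strand. Opposite-strand genes overlap Ccl2 (Gm17268, 0 counts in the 16 libraries) and Ccl6 (E230016K23Rik, 6 counts), and a library kit that does not mark the strand cannot separate their reads.

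RefSeq promoters (GRCm38.p6) were found for 6 of the 10 genes: Ccl3, Ccl6, Ccl9, Ccl12, Ccl17 and Ccl22. The 250 bases before the RefSeq start of 4 of them are shown 5′ to 3′, since their RNAs took different courses after LPS: Ccl12 had 0 to 2 counts per library before it, Ccl3 was low but detected, Ccl9 started high and rose, and Ccl6 started high and did not pass the test. Capitals mark matches, on either strand, to the motifs named next.
Ccl3 (chr11:83649379-83649628, minus strand): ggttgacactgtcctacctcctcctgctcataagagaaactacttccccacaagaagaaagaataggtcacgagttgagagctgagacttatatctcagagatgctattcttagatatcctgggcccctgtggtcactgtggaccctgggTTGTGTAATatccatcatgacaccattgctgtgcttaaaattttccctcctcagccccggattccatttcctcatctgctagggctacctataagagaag
Ccl12 (chr11:82101595-82101844, plus strand): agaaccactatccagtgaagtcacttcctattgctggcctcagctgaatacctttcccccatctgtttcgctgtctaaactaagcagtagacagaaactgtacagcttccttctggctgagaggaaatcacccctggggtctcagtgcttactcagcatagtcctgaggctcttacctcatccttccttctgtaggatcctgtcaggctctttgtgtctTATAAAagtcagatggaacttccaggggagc
Ccl9 (chr11:83578637-83578886, minus strand): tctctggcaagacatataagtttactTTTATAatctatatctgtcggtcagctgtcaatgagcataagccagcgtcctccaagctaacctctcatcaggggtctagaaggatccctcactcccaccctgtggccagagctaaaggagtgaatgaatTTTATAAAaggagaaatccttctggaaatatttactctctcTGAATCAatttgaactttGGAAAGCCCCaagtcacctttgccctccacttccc
Ccl6 (chr11:83593088-83593337, minus strand): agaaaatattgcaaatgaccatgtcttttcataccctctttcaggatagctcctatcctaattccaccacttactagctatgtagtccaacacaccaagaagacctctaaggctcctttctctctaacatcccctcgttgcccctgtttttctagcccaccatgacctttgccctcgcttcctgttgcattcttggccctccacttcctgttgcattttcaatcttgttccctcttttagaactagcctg

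The motifs searched on both strands were the NF-kB consensus, GAAANNGAAA (interferon-stimulated response element), TGANTCA (AP-1), TTCNNNNGAA (STAT6), TTCNNNGAA (other STAT dimers), TTNNGNAAT (C/EBP) and TATAAA. The Ccl9 promoter held an NF-kB match on its reverse strand from -35 to -26 relative to the start, a TGANTCA match from -53 to -47 and 3 TATAAA matches, of which those at -94 and -92 overlap on opposite strands. Ccl3 held a TTNNGNAAT match from -100 to -92, and Ccl12 held TATAAA from -31 to -26. None of the 7 motifs matched within the 250 bases of Ccl6 or Ccl22. Ccl17 held TTCNNNNGAA from -154 to -145 and TTCNNNGAA from -99 to -91. Among 32817 RefSeq promoters of the same length, 7.25% held the NF-kB consensus, 2.97% GAAANNGAAA, 6.75% TGANTCA, 5.85% TTCNNNNGAA, 7.01% TTCNNNGAA, 10.2% TTNNGNAAT and 12.4% TATAAA. A match describes these letters and is not evidence of binding.

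Total counts per library ranged from 2871477 to 10043362. The lowest was that of replicate 4 of the untreated cells without serine, which also detected 12900 genes against 14000 to 16031 in the other 15 libraries and had a TMM scaling factor of 1.03 against 1.24 to 1.27 in the other untreated libraries. Several values that rest on it are given with and without it below. Replicate 1 differed in sex from the others (Xist, 0 counts in its 4 libraries against 351 to 1477 in the other 12). The 14 macrophage markers all had counts in each group, with a summed level of 33290.3 to 69580.3 CPM, the upper end being that shallow library. Summed neutrophil markers were 92.7 to 147 CPM in the 4 libraries of replicate 1 and 10.9 to 34.7 CPM in the others. The 8 T and NK cell markers summed to 2.70 to 11.3 CPM over the libraries, and of them Cd3e, Cd3d and Cd3g had 0 counts in each group.

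Levels are CPM, counts scaled to library size with TMM factors, and where genes are compared with one another, RPKM, which is CPM per kilobase of the deposited gene length. Of the 10 genes, 9 had enough counts to be tested among 11004 genes. Ccl3, Ccl4, Ccl5, Ccl6 and Ccl9 would also have passed the low-count filter on the untreated libraries alone, but Ccl2, Ccl7, Ccl12 and Ccl22 passed it through the LPS libraries, where they are high, so counts over the tested genes partly follow from the filter. In bulk RNA, fewer cells making a transcript and less of it per cell cannot be told apart.

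Without LPS, 3 genes made up most of the CC chemokine RNA per length. With serine, Ccl6 was at 122 ± 39.9 RPKM, Ccl9 at 111 ± 11.1 and Ccl5 at 79.0 ± 31.7 (mean ± SD, n = 4), and their ranges over libraries overlapped. Within libraries, Ccl6 lay above Ccl9 in 2 of 4 and Ccl9 above Ccl5 in 4 of 4. Ccl3 followed at 6.69 ± 1.45 RPKM and Ccl4 at 2.25 ± 0.65, each clear of the next. Ccl2 was at 0.519 ± 0.158 RPKM and Ccl7 at 0.388 ± 0.172, and these overlapped. Ccl22 was at 0.0313 ± 0.0213 RPKM, from 3 counts in 4 libraries. Ccl12 and Ccl17 had 0 counts there. Without serine the same 3 genes led, with Ccl9 at 130 ± 38.5 RPKM, Ccl6 at 129 ± 48.9 and Ccl5 at 89.8 ± 27.5. Without the shallow library (n = 3) they were at 111 ± 11.7, 112 ± 42.5 and 90.7 ± 33.6 RPKM. The 10 genes summed to 321 ± 61.4 RPKM with serine and 365 ± 92.0 without (327 ± 66.6 without the shallow library).

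With LPS the order changed, with Ccl3 and Ccl4 now highest per length. With serine, Ccl3 was at 2250 ± 354 RPKM, Ccl4 at 1721 ± 317, Ccl5 at 1283 ± 175 and Ccl9 at 1151 ± 81.2, and each range overlapped that of its neighbour in this order. Within libraries, Ccl3 lay above Ccl4 and Ccl4 above Ccl5 in 4 of 4, and Ccl5 above Ccl9 in 3 of 4. Ccl7 was lower, at 260 ± 107 RPKM, clear of Ccl9. Ccl2 at 145 ± 47.9 and Ccl6 at 143 ± 50.3 overlapped each other. Ccl12 was at 23.2 ± 14.6 RPKM, Ccl22 at 13.0 ± 4.00 and Ccl17 at 0.325 ± 0.477. In cells without serine the 4 leading genes kept that order, with Ccl3 at 1987 ± 317, Ccl4 at 1447 ± 247, Ccl5 at 1218 ± 157 and Ccl9 at 1033 ± 92.6 RPKM. There each lay above the next in 4 of 4 libraries. The sum over the 10 genes was 6989 ± 798 RPKM with serine and 6240 ± 524 without.

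As shares of that sum, Ccl6 went from 37.4 ± 7.31% in untreated cells with serine to 2.06 ± 0.71% with LPS. Ccl9 went from 35.3 ± 5.48% to 16.6 ± 1.36%, although its own RNA rose, and Ccl5 from 24.2 ± 7.46% to 18.3 ± 1.20%. Ccl3 went from 2.12 ± 0.48% to 32.2 ± 2.65% and Ccl4 from 0.694 ± 0.116% to 24.5 ± 1.87%. Reads of the 10 genes were 0.101 ± 0.0162% of all gene counts in untreated cells with serine, 0.107 ± 0.0191% in those without (0.0996 ± 0.0161% without the shallow library), 0.756 ± 0.0545% with LPS and serine and 0.673 ± 0.0402% with LPS and no serine.

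**Figure D1:**
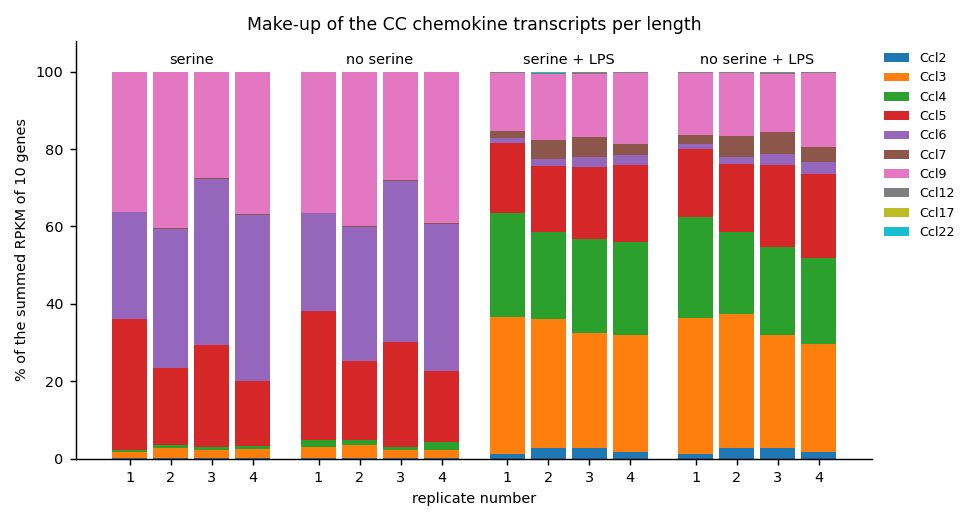
Share of the summed CC chemokine RPKM (percent, vertical axis) held by each gene, 1 stacked bar per library, ordered by group and replicate number. Ccl6, Ccl9 and Ccl5 fill most of the untreated bars (means of 37.4, 35.3 and 24.2% with serine), and Ccl3 and Ccl4 are the largest parts of the LPS bars (means of 32.2 and 24.5% with serine).

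The first question was which CC chemokine genes respond to LPS, with and without serine. After LPS, 8 of the 9 tested genes were higher and 0 lower in cells with serine, where 27.6% of all 11004 genes were higher, and 8 of 9 were higher in cells without serine, where 27.1% of all genes were. They were Ccl2, Ccl3, Ccl4, Ccl5, Ccl7, Ccl9, Ccl12 and Ccl22 in both media, and Ccl6 was the one that did not pass. Of these, Ccl2, Ccl7, Ccl12 and Ccl22 passed the low-count filter only through the LPS libraries, so their calls partly follow from it. Of the 5 genes that pass it on the untreated libraries alone, Ccl3, Ccl4, Ccl5 and Ccl9 were higher and Ccl6 did not pass the test. For the 8 genes that passed the test each LPS library lay above each untreated library in both media, against 30.7% of all genes with serine and 25.3% without. This count carries the same limit from the filter. The call rule was an adjusted p under 0.05 in the quasi-likelihood test of edgeR, adjusted over all genes by the Benjamini-Hochberg method, and it held for these 8 genes in each of 20 alternative settings per gene and medium.

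**Figure D2:**
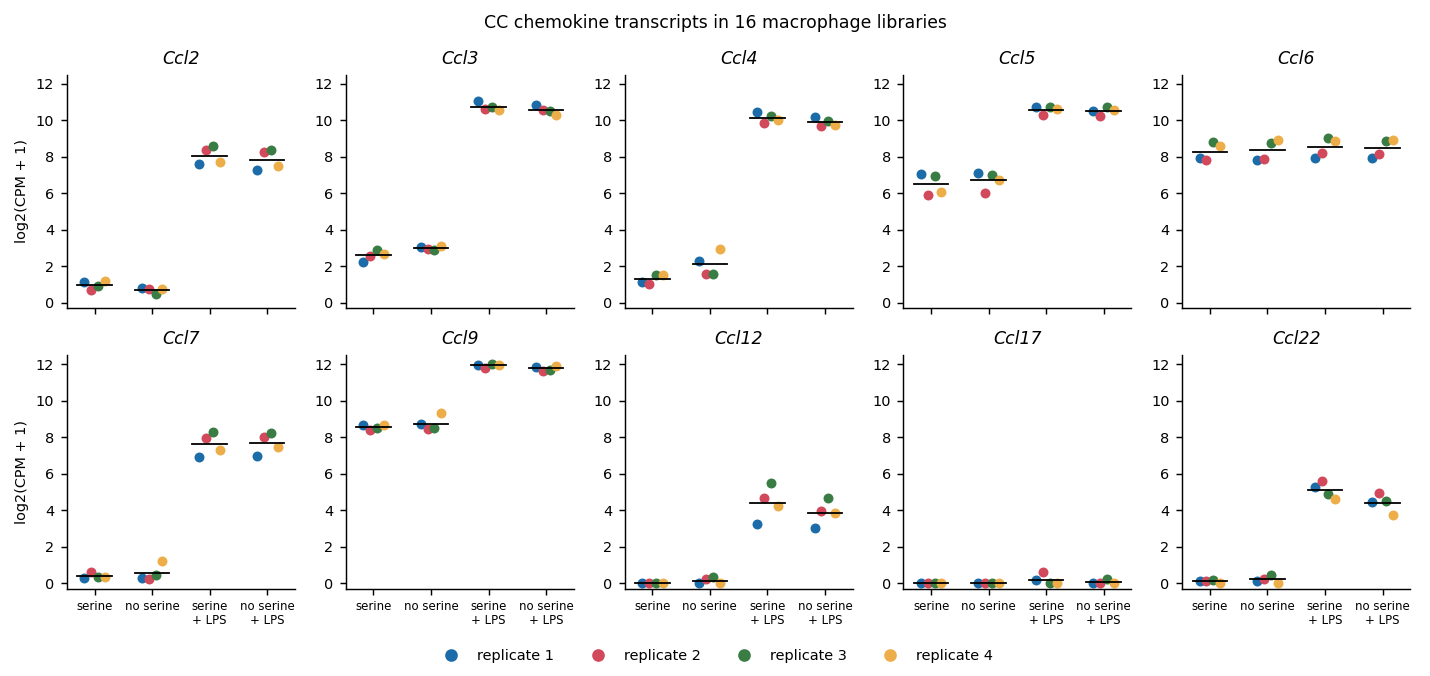
Level of each of the 10 genes in each of the 16 libraries (vertical axis, log2 of CPM + 1), by group on the horizontal axis and coloured by replicate number, with a black line at each group's mean. For 8 genes the LPS points lie above the untreated points in both media, the Ccl6 points overlap between 228 and 526 CPM, and Ccl17 is at or near 0.

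Ccl3, Ccl4 and Ccl5 are attractants of monocytes, macrophages and T cells. Ccl3, also called MIP-1 alpha, was at 3.74, 4.91, 6.41 and 5.43 CPM in replicates 1 to 4 of the untreated cells with serine and at 2110, 1562, 1708 and 1513 CPM with LPS. Without serine it was at 7.41, 6.63, 6.41 and 7.76 CPM untreated and at 1840, 1523, 1475 and 1252 CPM with LPS. Replicate 1 was the highest and replicate 4 the lowest LPS library in both media. The log2 fold change was 8.40 ± 0.22 (± SE) with serine and 7.76 ± 0.21 without (edgeR adjusted p = 2.00e-13 and 4.72e-13).

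Ccl4, or MIP-1 beta, is the neighbour of Ccl3 in the genome. It was at 1.21, 1.02, 1.89 and 1.81 CPM in untreated cells with serine, and at 1391, 907, 1205 and 1040 CPM with LPS. Without serine the values were 3.91, 1.98, 1.92 and 6.75 CPM untreated and 1171, 806, 985 and 857 CPM with LPS. The untreated values rest on 10 to 49 counts per library, and the highest, 6.75 CPM, is from the shallow library. On the log2 scale the rise was 9.59 ± 0.36 with serine and 8.19 ± 0.34 without (edgeR adjusted p = 3.73e-12 and 1.24e-11). Leaving out the shallow library moved the rise to 8.46 ± 0.28 in cells without serine.

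Ccl5, known as RANTES, attracts T cells and monocytes and is a known interferon-responsive gene. Untreated cells already held 132, 57.6, 123 and 66.7 CPM with serine and 137, 62.7, 126 and 105 CPM without. With LPS it was at 1689, 1239, 1680 and 1550 CPM with serine and 1442, 1217, 1668 and 1518 CPM without. Replicate 2 was the lowest library in each of the 4 groups. The rise was smaller on the log2 scale than that of Ccl3 or Ccl4, at 4.02 ± 0.29 with serine and 3.76 ± 0.29 without (edgeR adjusted p = 5.54e-09 and 1.19e-08). By Pearson's r of log2 CPM over the 16 libraries, which span both treatments, the genes outside the 10 most like Ccl5 were Ifi208 (0.995), Ifi47 (0.994) and Ifit1 (0.994).

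Ccl2, Ccl7 and Ccl12 are the ligands of Ccr2, the receptor by which inflammatory monocytes leave the marrow and enter tissue. Ccl2, or MCP-1, had 2 to 12 counts in each untreated library. It was at 1.21, 0.614, 0.880 and 1.25 CPM untreated with serine, and at 191, 328, 380 and 210 CPM with LPS. In cells without serine it was at 0.717, 0.693, 0.385 and 0.675 CPM untreated and at 151, 304, 326 and 176 CPM with LPS. Replicates 2 and 3 were higher than replicates 1 and 4 in both LPS groups. The fitted log2 fold change was 8.12 ± 0.38 with serine and 8.54 ± 0.40 without (edgeR adjusted p = 2.94e-11 and 3.98e-11).

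Ccl7, or MCP-3, lies 8259 bases from Ccl2. It had 11 counts over the 4 untreated libraries with serine and 12 over those without. With LPS it was at 122, 248, 308 and 154 CPM with serine and 123, 259, 304 and 177 CPM without, in the same order over the replicates as Ccl2. The log2 fold change was 9.29 ± 0.50 and 9.12 ± 0.51 (edgeR adjusted p = 1.49e-10 and 2.34e-10). Leaving out the shallow library moved it to 9.59 ± 0.61 in cells without serine. From the summed counts the LPS level was 655 times the untreated level with serine (95% exact interval 366 to 1312) and 589 times without (337 to 1142), where the intervals cover counting error only.

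Ccl12, or MCP-5, is a rodent Ccr2 ligand. It had 0 counts in the 4 untreated libraries with serine and 4 counts in those without, 2 each in replicates 2 and 3. With LPS it was at 8.63, 24.7, 43.5 and 17.5 CPM with serine and at 7.31, 14.6, 24.3 and 13.3 CPM without. Replicate 3 was about 5.04 times replicate 1 with serine. Taking 3 counts in those 4 libraries together as the floor, the level was at least 271-fold higher with LPS in cells with serine, and in cells without serine the ratio was 121 (95% exact interval 46.7 to 446). Both comparisons passed the test (edgeR adjusted p = 9.22e-07 and 7.19e-06).

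Ccl9 and Ccl6 are neighbours, 9246 bases apart on the same strand, and both encode Ccr1 ligands of rodents that attract myeloid cells. Ccl9 was at 402, 331, 365 and 414 CPM in untreated cells with serine, and at 3973, 3517, 4138 and 4048 CPM with LPS. Without serine it was at 424, 347, 367 and 633 CPM untreated, the last value being from the shallow library, and at 3736, 3158, 3348 and 3821 CPM with LPS. The groups did not overlap in either medium. The log2 fold change was 3.37 ± 0.18 with serine and 2.99 ± 0.18 without (edgeR adjusted p = 1.16e-10 and 4.39e-10). Leaving out the shallow library moved Ccl9 to 3.21 ± 0.12 in cells without serine. Its nearest genes by r over the 16 libraries were Sod2, Sdc4 and Znrf1 (0.997 each).

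Ccl6 was abundant in each library and did not pass the test in either medium. It was at 241, 229, 446 and 377 CPM in untreated cells with serine, and at 244, 291, 526 and 458 CPM with LPS. Without serine it was at 228, 235, 427 and 480 CPM untreated and at 244, 278, 472 and 477 CPM with LPS. The groups overlapped, and the values followed the replicate number: the 8 libraries of replicates 1 and 2 lay between 228 and 291 CPM and the 8 of replicates 3 and 4 between 377 and 526 CPM. The log2 fold change was 0.23 ± 0.32 with serine and 0.10 ± 0.32 without (edgeR adjusted p = 0.572 and 0.800). Leaving out the shallow library moved Ccl6 to 0.31 ± 0.36 in cells without serine (edgeR adjusted p = 0.469). With a block for the replicate number it did not pass either (edgeR adjusted p = 0.0586 and 0.307). It passed in 3 of 7 block fits with serine and 1 of 7 without, among them the fit that also left out the shallow library (0.22 ± 0.06 and 0.19 ± 0.07, edgeR adjusted p = 0.00234 and 0.0147). Scaling to total counts, which moves the median log2 fold change of all genes from -0.03 to -0.64 with serine and from -0.12 to -0.69 without, gave -0.39 and -0.45 for Ccl6, a shift in common with the other genes. Relative to the median of all genes, Ccl6 was at 0.26 with serine and 0.23 without under TMM scaling and at 0.25 and 0.24 under total-count scaling. Beside it, the 14 macrophage markers summed to 33290.3 to 38671.8 CPM in replicates 1 and 2 and 39927.4 to 69580.3 CPM in replicates 3 and 4, the upper end being the shallow library. The 6 B cell markers, at far lower levels, summed to 2.38 to 4.49 CPM and 5.65 to 9.78 CPM in the same libraries. Ighm, the immunoglobulin heavy chain gene on the B cell list, had the highest r with Ccl6 over the 16 libraries (0.943, followed by Pla2g7 at 0.924 and Cyp4f18 at 0.919). The part of either cell type in the Ccl6 pattern was not tested.

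Ccl17 and Ccl22 are the ligands of Ccr4, a receptor of T helper type 2 and regulatory T cells, and both are known as products of dendritic cells and of macrophages exposed to interleukin-4. Ccl22, or MDC, had 3 counts over the 4 untreated libraries with serine and 6 over those without. With LPS it was at 38.0, 47.0, 28.5 and 23.2 CPM with serine and at 21.3, 30.2, 21.7 and 12.3 CPM without. Replicate 2 was the highest and replicate 4 the lowest LPS library in both media. The LPS level was 402 times the untreated level with serine (95% exact interval 137 to 1954) and 120 times without (54.9 to 330), and both comparisons passed the test (edgeR adjusted p = 2.66e-10 and 2.07e-09). The genes most like it over the 16 libraries were Adamts4 (r = 0.995), Il12b (0.993), which encodes a subunit of interleukin-12, and Tpbg (0.992).

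Ccl17, or TARC, was next to undetected. It had 5 counts in the 16 libraries: 1 and 3 in replicates 1 and 2 of the cells with LPS and serine, 1 in replicate 3 of those with LPS and without serine, and 0 in the 8 untreated libraries. It was not tested, and a difference was not detectable at this depth. The 12 dendritic cell markers summed to 4.02 to 8.09 CPM in the 8 untreated libraries, 25.4 to 32.7 CPM with LPS and serine and 24.0 to 36.4 CPM with LPS and no serine. Cd209a had 0 counts in 3 of the 4 groups. Of the 12 markers, 3 passed the low-count filter with all libraries and 1 on the untreated libraries alone, so the sums rest on few genes. The part of dendritic cells in the Ccl22 values was not tested.

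**Figure D3:**
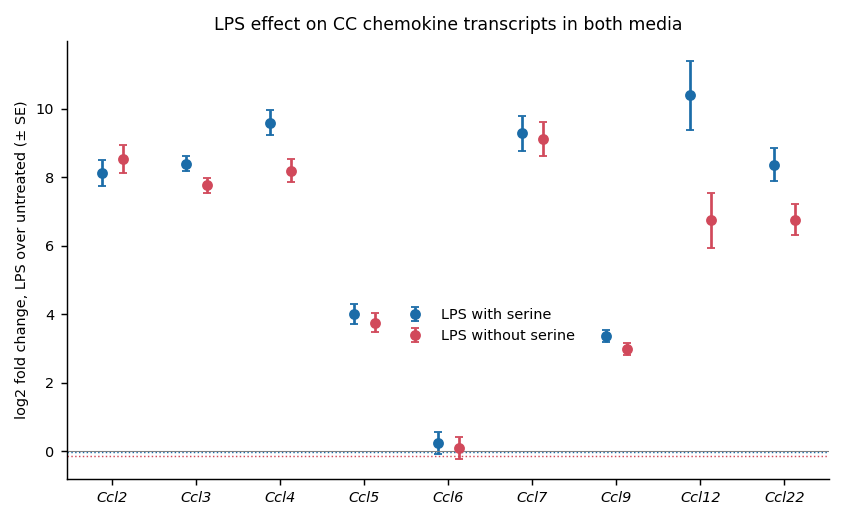
Log2 fold change after LPS from edgeR (vertical axis, points ± SE) for the 9 tested genes in both media, with dotted lines at the median of all tested genes (-0.03 with serine and -0.12 without). The 8 genes that passed the test lie between 2.99 and 10.4 and Ccl6 lies near 0; the Ccl12 value with serine is fitted against 0 untreated counts and depends on the prior count.

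In the authors' deposited tables, the same 8 genes are marked higher in both LPS comparisons, Ccl6 is not marked and Ccl17 is not listed. For Ccl3 the authors' deposited table gives a log2 fold change of 8.40 with serine and 7.76 without.

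The second question was whether serine withdrawal alone changes these genes. In untreated cells 0 of the 9 tested genes passed the test, and 0% of all genes did (0 of 11004, with 548 at an unadjusted p under 0.05 and, by DESeq2, 12 genes higher and 1 lower). Ccl3 and Ccl4 had the smallest unadjusted p-values of the 9. The Ccl4 log2 fold change was 1.15 ± 0.36 (edgeR adjusted p = 0.816) and that of Ccl3 0.46 ± 0.19 (edgeR adjusted p = 0.816). For both genes the 4 libraries without serine lay above the 4 with serine, which was so for 1.46% of all genes. For Ccl3 this rests on a tie in replicate 3, at 6.41 CPM in both media, from 51 and 50 counts. These levels are low: Ccl4 had 50 counts over the 4 libraries with serine and 104 over those without, and replicate 3 was at 1.89 and 1.92 CPM, nearly equal. Without the shallow library the Ccl4 value was 0.89 ± 0.34 (edgeR adjusted p = 1).

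Ccl3 (with that tie), Ccl4, Ccl5 and Ccl9 were higher without serine in 4 of 4 replicate pairs of untreated cells, as were 8.72% of all genes. For Ccl5 the log2 fold change was 0.18 ± 0.26 and for Ccl9 0.23 ± 0.16, and in both the pair of replicate 4, with the shallow library, differed most (0.65 and 0.61 on the log2 scale against at most 0.12 and 0.07 in the other pairs). Without that library the Ccl9 value was 0.0039 ± 0.11 and the Ccl5 value 0.20 ± 0.30. Ccl2 was at -0.63 ± 0.54, lower in 3 of 4 pairs, and Ccl6 at 0.08 ± 0.32 (-0.12 ± 0.36 without the shallow library). Ccl7, Ccl12 and Ccl22 had at most 12 counts per untreated group, and no fold is given for them here. The Ccl7 values given in the closing section for this comparison and for the difference rest on 11 and 12 untreated counts.

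The third comparison was serine withdrawal in LPS-treated cells. Here 0 of the 9 tested genes passed the test without pairing, where 0.0636% of all genes did (6 higher and 1 lower), and each of the 10 genes had overlapping groups, while 3.31% of all genes lay lower without overlap. Within replicate pairs, 7 of the 10 genes (Ccl2, Ccl3, Ccl4, Ccl5, Ccl9, Ccl12 and Ccl22) were lower without serine in 4 of 4 pairs, against 16% of all genes. Ccl6 was lower in 3 of 4 pairs, Ccl7 was higher in 3 of 4, and Ccl17 was at 0 or 1 count in all but 1 library. Of the 8 marker lists, the summed stromal and macrophage markers were also lower without serine in 4 of 4 pairs. The stromal markers went from 50.2, 48.0, 50.3 and 24.4 CPM in replicates 1 to 4 with serine to 25.6, 43.3, 48.4 and 15.6 CPM without, with 9 of the 10 detected in each group, Lepr at 0 with serine and Lum without. The macrophage markers summed to 34645.5 to 44564.1 CPM with serine and 33290.3 to 42635.4 CPM without. Their part in these values was not tested. The libraries of these comparisons are shared with the LPS comparisons above.

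Of the 9 tested genes, Ccl22 and Ccl12 had the lowest mean levels without serine relative to those with it. In pairs 1 to 4 the Ccl22 level without serine was 56.1, 64.2, 76.2 and 52.9% of that with serine, and the ratio of the group means was 62.6% (62.9% for Ccl12). The log2 fold change was -0.68 ± 0.26 (edgeR adjusted p = 0.573). A fit with a block for the replicate number, which uses the pairing, gave -0.69 ± 0.15, past the threshold (edgeR adjusted p = 0.0469); Ccl22 was then the 1 gene of the 9 that was lower, where 0.227% of all genes were. Leaving out a replicate number from every group under the block kept this call without replicate 4 (-0.63, adjusted p = 0.00768 by edgeR) and ended it without replicate 1, 2 or 3 (-0.65, -0.71 and -0.79, edgeR adjusted p = 0.425, 0.592 and 0.158). The authors' deposited table gives -0.68 with an adjusted p of 0.224. The summed dendritic cell markers, at 25.4 to 32.7 CPM with serine and 24.0 to 36.4 CPM without, overlapped between these groups.

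Ccl12 showed a log2 fold change of like size, -0.67 ± 0.44 without pairing and -0.59 ± 0.16 with the block, and missed the threshold in both (edgeR adjusted p = 1 and 0.203). Its 4 pairs were at 84.6, 59.0, 55.8 and 75.5% of the level with serine. The pairs of the high genes differed less. Ccl2 was at 78.9, 92.7, 85.8 and 83.8%, Ccl3 at 87.2, 97.5, 86.3 and 82.7%, and Ccl4 at 84.2, 88.9, 81.7 and 82.4%. For Ccl9 the pairs were at 94.0, 89.8, 80.9 and 94.4%, and for Ccl5 at 85.4, 98.2, 99.3 and 97.9%. Ccl7, the neighbour of Ccl2, was at 101, 104, 98.6 and 115%. The unpaired log2 fold changes were -0.21 ± 0.25 for Ccl2, -0.18 ± 0.15 for Ccl3, -0.25 ± 0.24 for Ccl4, -0.16 ± 0.16 for Ccl9, -0.08 ± 0.26 for Ccl5, -0.05 ± 0.32 for Ccl6 and 0.05 ± 0.30 for Ccl7, with edgeR adjusted p at 1 for each.

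**Figure D4:**
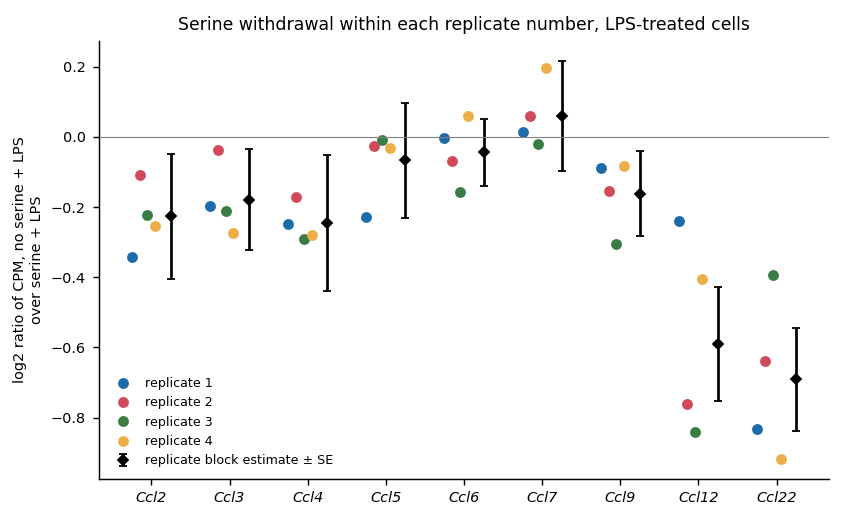
Level without serine relative to that with serine in each replicate pair (vertical axis, log2 ratio of CPM) for LPS-treated cells, by gene, with the estimate under the replicate block and its SE as black diamonds. The 4 Ccl22 pairs lie between -0.92 and -0.39 and the 4 Ccl12 pairs between -0.84 and -0.24, while those of Ccl7 lie between -0.02 and 0.20.

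How many of these genes passed under the block moved with the shallow untreated library, although it is in neither LPS group. Without the block 0 of the 9 passed in any of 13 settings. All 16 libraries share 1 estimate of the spread, and without that library 11107 genes passed the filter; which of these bears on the calls was not tested. With the block and without that library, 4 of the 9 genes were lower, where 3.32% of all genes were: Ccl22 (-0.68 ± 0.11, edgeR adjusted p = 0.000501), Ccl12 (-0.63 ± 0.13, 0.00664), Ccl4 (-0.25 ± 0.07, 0.0389) and Ccl9 (-0.16 ± 0.05, 0.0397). With the block on the 8 LPS libraries alone, an alternative added after the data were seen, 6 of the 9 were lower, where 10.5% of all genes were, the other two being Ccl2 (-0.23 ± 0.04) and Ccl3 (-0.18 ± 0.03). Over these fits the fold changes moved little and their errors shrank.

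Whether LPS altered the effect of withdrawal was tested as a difference between the 2 withdrawals. Again 0 of the 9 genes passed, and 0% of all genes did (253 at an unadjusted p under 0.05, and 1 gene higher by DESeq2). Ccl4 and Ccl3 had the smallest unadjusted p-values of the 9. For Ccl4, higher without serine in untreated cells and lower in LPS-treated cells in 4 of 4 pairs each, the difference was -1.40 ± 0.43 (edgeR adjusted p = 0.950). For Ccl3 it was -0.64 ± 0.24 (edgeR adjusted p = 0.950). Without the shallow library the Ccl4 difference was -1.14. Ccl22 was at -1.61 ± 1.05, with 3 and 6 untreated counts behind it.

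In the LPS libraries the Ccr2 ligands shared one order over the replicate numbers. Ccl2, Ccl7 and Ccl12 ran from replicate 1 (lowest) through 4 and 2 to 3 (highest) in both media. Their log2 deviations from the group means correlated over the 8 LPS libraries, which form 4 pairs, with r = 0.978 for Ccl2 and Ccl7, 0.872 for Ccl2 and Ccl12 and 0.948 for Ccl7 and Ccl12. Ccl4 ran from replicate 2 through 4 and 3 to 1 in both media, and Ccl3 and Ccl4 correlated with r = 0.815. Between these sets of genes r was lower, at -0.294 for Ccl2 and Ccl3 and -0.434 for Ccl2 and Ccl4. Not all neighbours varied together: r was 0.342 for Ccl6 and Ccl9 and -0.700 for Ccl3 and Ccl6. For Ccl6 and Ccl12, which lie in different stretches, it was 0.723. Ccl22 and Ccl9 ran opposite, with r = -0.831. These values describe 8 libraries that share replicate number and medium. Beside them, the summed markers of each cell type also followed the replicate number in both media. Stromal, mast cell and basophil, and dendritic cell sums were lowest in replicate 4. Neutrophil and dendritic cell sums were highest in replicate 1, where macrophage and B cell sums were lowest. Macrophage and eosinophil sums were highest in replicate 4, and T and NK cell sums in replicate 3. Their part in these patterns was not tested.

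**Figure D5:**
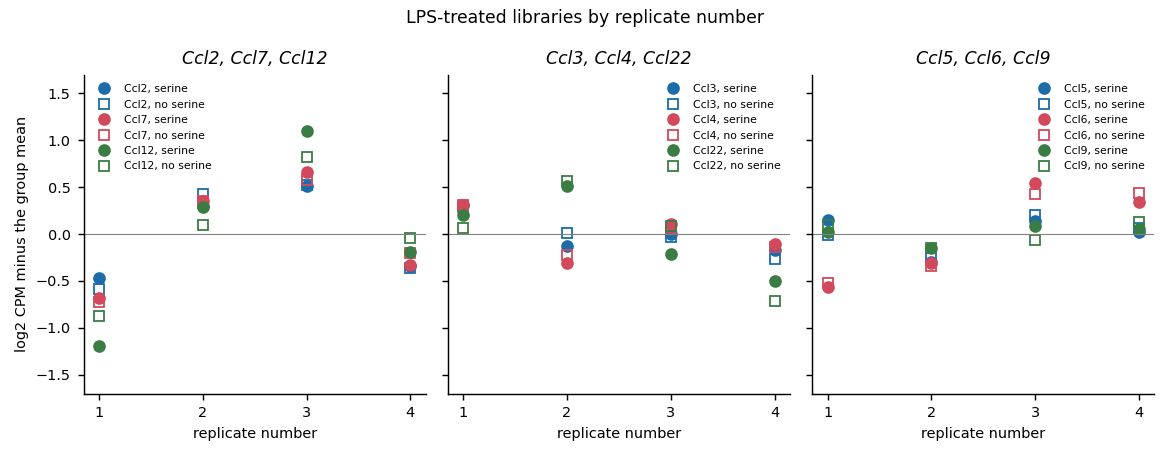
Deviation of each gene from its group mean (log2 CPM, vertical axis) by replicate number in the LPS libraries, filled circles with serine and open squares without. Ccl2, Ccl7 and Ccl12 are lowest in replicate 1 and highest in replicate 3 in both media, and Ccl4 is lowest in replicate 2 and highest in replicate 1.

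Among the CC chemokine receptor and scavenger genes, Ccrl2, Ccr9, Ccr3 and Ccr1 rose with LPS and Ccr2 fell, in both media. Ccrl2, an atypical receptor that binds chemerin, rose by 5.44 ± 0.17 on the log2 scale with serine and 5.45 ± 0.17 without. Ccr9 rose by 3.10 ± 0.43 and 1.56 ± 0.37 and Ccr3 by 2.13 ± 0.30 and 2.19 ± 0.31. The Ccr9 values rest on few counts per group: 7 untreated and 43 with LPS in cells with serine, and 19 and 39 in those without. Ccr9 passed the low-count filter through the LPS libraries. Ccr1, a receptor gene for Ccl3 and Ccl5, rose by 1.40 ± 0.24 in both media. Ccr2, whose ligands rose, fell by 1.36 on the log2 scale with serine and 1.54 without. Ccr4, the receptor of Ccl17 and Ccl22, had 0 counts in the 16 libraries.

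Of 10 further CC chemokine ligand genes 2 were tested and 0 passed with LPS in either medium. Of all genes 27.6% were higher and 28.2% lower with serine, and 27.1% and 29.7% without, so 0 of 2 says little about this list. Ccl8, a leukocyte attractant known as MCP-2, was at 1.56 ± 0.72 with serine (edgeR adjusted p = 0.0780, and with the replicate block 0.00405) and 0.31 ± 0.71 without, and Ccl25 at -0.56 ± 0.32 and 0.24 ± 0.30. Of 14 CXC and other chemokine ligand genes 10 were tested, of which 5 passed the low-count filter only through the LPS libraries, so no count of those that rose is given. Cxcl11, with 0 counts in untreated cells with serine and 4 in those without, rose by 9.38 ± 0.46 without serine and Cxcl10, which attracts activated T cells, by 10.4 ± 0.58 with serine and 10.3 ± 0.58 without. Cxcl14 fell by 1.46 and 1.24 on the log2 scale.

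Among 16 tested genes of the NF-kB, IRF and STAT families 13 rose and 0 fell with LPS in both media, where 27.6 and 27.1% of all genes were higher and 28.2 and 29.7% lower. Stat2 rose by 4.22 ± 0.29 and 4.46 ± 0.30, Irf1 by 4.14 ± 0.26 and 4.03 ± 0.26, and Nfkb1 by 3.36 ± 0.12 and 3.40 ± 0.12. Of 10 genes for NF-kB feedback and the decay of chemokine mRNA 8 rose and 2 fell in both media, beside those same shares of all genes. Nfkbiz rose by 6.25 ± 0.28 and 5.82 ± 0.28. The mRNA decay factors of this list went both ways. Zfp36l1 and Zfp36l2 fell, with log2 fold changes of -3.64 and -3.97 for Zfp36l1 and -2.37 and -1.89 for Zfp36l2. Zfp36 rose from a mean of 164 to 666 CPM with serine and from 156 to 683 CPM without. Zc3h12a rose from 32.3 to 286 CPM and from 30.7 to 274 CPM. Of the interleukin-4 and alternative activation list 5 genes were tested, of which 4 pass the low-count filter on the untreated libraries alone. Of these 4 only Il4ra, the interleukin-4 receptor gene, rose, by 1.0 ± 0.17 and 0.82 ± 0.17, where 27.6 and 27.1% of all genes did. Socs1, a feedback inhibitor of JAK kinases, passed the filter through the LPS libraries. It had 14 counts over the untreated libraries with serine and 26 over those without, and rose by 7.56 ± 0.41 and 6.11 ± 0.39. With the replicate block Clec10a also passed with serine (0.67 ± 0.28, edgeR adjusted p = 0.0492) and Mrc1, the mannose receptor gene, without (0.44 ± 0.15, edgeR adjusted p = 0.0215).

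In both withdrawals, and in the difference between them, 0 of the genes named from these lists passed the unpaired test. Of all genes 0% did in untreated cells, 0.0636% in LPS-treated cells and 0% for the difference. With the block 1 did: Cxcl3, a neutrophil attractant, was lower without serine in LPS-treated cells (-0.69 ± 0.11, edgeR adjusted p = 0.00829, against -0.64 ± 0.54 unpaired), where 0.227% of all genes were lower. Cxcl3 had 6 counts in each untreated group.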

How the data were processed

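The authors deposited read counts per Ensembl gene, as whole numbers for 43430 genes with a column for each library. The submitters' processing notes name the mm10 build and the tools edgeR, HTSeq, SAMtools, STAR and Trimmomatic 0.33 without saying what each did, and how reads shared by near-identical genes were counted is not given in the sources used here. The authors' deposited tables of comparisons also hold log2 fold changes and adjusted p-values, per the file headers. Left out were 24 more per-sample columns beside these counts, and the deposited FPKM and normalized counts.

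In R 4.3.3, edgeR 4.0.16 was run on the deposited counts with its default low-count filter, TMM scaling and a robust quasi-likelihood fit of 16 libraries, each of the 4 groups having its own mean. The 5 contrasts were tested two-sided across all 11004 genes with Benjamini-Hochberg adjustment and a threshold of 0.05, and the steps were tested on simulated data. RPKM was computed from TMM-scaled CPM and the deposited gene length. Ratios from summed counts carry exact 95% Poisson intervals, with a floor of 3 counts per group.

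Same-numbered libraries deviated together: the correlation of their log2 CPM deviations from group means was 0.125 to 0.660 in the 4 comparisons of 2 groups, against -0.373 to 0.141 for different numbers, so the numbers pair the libraries. The fit without a block remained the one reported first, and the blocked value is given where it changes a call.

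The genes, the gene lists and the comparisons were chosen with earlier results of these data known. Named beside the 10 genes are, per list, at most 4 members that passed with the largest changes, and the 3 genes most correlated over the 16 libraries for 4 of the 10. Others are named where a count of 5 or fewer called for it, after their values were seen. Zfp36 and Zc3h12a were likewise added as the other mRNA decay factors of their list. A gene of the receptor list, and the counts over that list, are not reported here. Alternatives were RLE and total-count scaling, no low-count filter, DESeq2 1.42.0, the block, and leaving out libraries.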

Additional observations from a re-analysis of the deposited data

Results flagged for a closer look

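In 3 of 37 gene and group sets of 4 libraries, 1 library lay far from the other 3 by Dixon's ratio of its gap to the whole range at its 95% critical value. About 1 in 20 sets of normally distributed values is picked out by chance, a rate that need not hold for sets of few counts. Each of the 3 rests on few counts.

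In untreated cells without serine, Ccl2 in replicate 3 was at 0.385 CPM, from 3 counts, against 0.675 to 0.717 CPM in the other replicates (ratio 0.872). Ccl7 in replicate 4 of the same group, the shallow library, was at 1.35 CPM, from 4 counts, against 0.198 to 0.385 CPM (ratio 0.838). Ccl17 in replicate 3 of the LPS-treated cells without serine was at 0.187 CPM, from 1 count, against 0 in the other 3 (ratio 1.0).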

How the results depend on the processing

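Each of the 8 calls after LPS kept its direction and its side of the threshold in 20 alternatives per gene and medium. With total-count scaling 1666 genes were higher and 6407 lower after LPS with serine and 1686 and 6566 without, and Ccl6 was at -0.39 and -0.45, relative to medians over all genes of -0.64 and -0.69. In untreated cells the withdrawal gave 2 higher genes without the low-count filter and 12 higher and 1 lower by DESeq2. In LPS-treated cells it gave 0 higher and 0 lower genes with total-count scaling, 3 higher without the filter, and 75 higher and 19 lower by DESeq2. Without replicate 1 of every group it gave 0 and 0, and leaving out 1 library gave 0 to 6 higher and 0 to 1 lower. The difference between the withdrawals gave 1 higher gene by DESeq2. None of these settings called a CC chemokine gene in a withdrawal. The block on 8 libraries and the block without a replicate number were chosen after seeing the data.

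With the replicate block, which uses the pairing, 9 genes were higher in untreated cells without serine, and in LPS-treated cells 73 were higher and 25 lower, 1 of them a CC chemokine gene (Ccl22, -0.69). With the block and without the shallow library, which is replicate 4 of untreated cells in medium lacking serine, the counts were 70 higher and 9 lower in untreated cells, 553 higher and 369 lower in LPS-treated cells, 4 of them CC chemokine genes, and 4 higher and 4 lower for the difference. Without replicate 1, 2, 3 or 4 of every group the block gave 2, 3, 4 and 29 higher genes in untreated cells, and without replicate 4 also 2 lower, 288 higher and 167 lower with LPS (2 CC chemokine genes lower: Ccl12 and Ccl22) and 1 higher for the difference. On the 8 LPS libraries alone it gave 1208 higher and 1051 lower, 6 of them CC chemokine genes. The block changed no other call of the 9 genes in the fit of 16 libraries. The cause of these shifts was not tested.

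Values near 0 changed sign. When 1 library was left out, Ccl6 ran from -0.047 to 0.31 for LPS without serine, from -0.12 to 0.28 for withdrawal in untreated cells, from -0.21 to 0.15 in LPS-treated cells and from -0.33 to 0.076 for the difference. Ccl7 ran from -0.25 to 0.59, -0.16 to 0.30 and -0.54 to 0.30 in the last 3 of these, and Ccl5 from -0.17 to 0.0032 in LPS-treated cells. In untreated cells Ccl6 was at -0.0083 with total-count scaling, and with the block at -0.011 without the shallow library and -0.034 without replicate 4 of every group. Under those 2 block fits Ccl7 was at -0.27 and -0.24, and its difference at 0.33 and 0.25.

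Counting depth limits Ccl2, Ccl7, Ccl12, Ccl17 and Ccl22 in untreated cells, where at most 12 counts per library were found, and no alternative adds depth there. The 4 libraries per group limit the spread that could be measured. Beyond the sex difference of replicate 1, it is not known whether they come from different animals.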
